A study of Rattus norvegicus with 11 samples.

Results

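The genes described here build, load and run the DNA replication machinery or supply its nucleotides in S phase. A list of 40 such genes was taken, and each was represented by the probe set that names that gene alone and has the highest mean over all arrays. Of the 40, 37 were measured among 14506 named genes, and Mcm3, Mcm4 and Chaf1a, named by no such probe set, were not analysed here. The genes were listed by function, with earlier results of these data known. The choice of probe set uses the mean level over all arrays and no difference between groups.

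Adrenal tissue of rats was measured on 11 one-colour Affymetrix arrays, each labelled as a separate biological replicate. Lesions 1 to 7 were taken from rats heterozygous for a germline mutation of p27Kip1 in the MENX rat model of multiple neuroendocrine tumours. The labels spell the gene Cdknb1, which is read here as Cdkn1b, since p27Kip1, an inhibitor of cyclin-dependent kinases, is its product. Normal glands 1 to 4 were taken from wild-type rats. All animals shared the strain background Sprague–Dawley white eye/Wistar–Kyoto, were kept free of specific pathogens and received no treatment. The older lesions were lesion 1, from a female of 23 months, and lesions 2 and 3, from males of 21 months. The younger lesions all came from rats of 13 months, lesions 4 and 5 from females and lesions 6 and 7 from males. Normal glands 1 (female) and 2 (male) were 24 months old, and normal glands 3 (female) and 4 (male) were 12 months old. The mutation is in every cell of the animal, and the labels do not say how much surrounding gland a lesion sample held. In such bulk tissue, fewer cells of a type and less RNA per cell cannot be told apart. Values are log2 expression after robust multi-array averaging (RMA), so that a difference of 1 is a factor of 2. A gene was called when its limma p, adjusted by Benjamini-Hochberg over all 29214 probe sets, was under 0.05.

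DNA replication begins when origins are licensed in G1. The origin recognition complex, Cdc6 and Cdt1 load the ring-shaped MCM helicase onto DNA, and geminin (Gmnn) later blocks further loading. In S phase, Cdc45, the GINS complex and Mcm10 activate the helicase, polymerase alpha with primase lays down primers, and a clamp (Pcna) put in place by replication factor C holds the polymerases on the template. Many of these genes are transcribed in late G1 by E2F factors once cyclin-dependent kinases have inactivated the retinoblastoma protein, and p27Kip1 inhibits those kinases. Chromaffin cells, the catecholamine-making cells of the adrenal medulla, rarely divide in the adult gland.

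Array medians over all probe sets lay between 4.91 and 5.01, and no array equalled another. The labelled tissue was borne out by its markers, since Th, which makes the precursor of catecholamines, lay between 11.52 and 12.57 (log2 level) and Star, the cholesterol transporter of steroid-making cortex cells, between 11.78 and 12.60. Lesion 1 stood apart. Its 8 measured cortex markers had a median of -1.02 relative to their normal means, and its 8 measured lymphocyte markers a median of 0.84. Values without it are given beside the results that it moves most. Cdkn1b itself, read by a probe set whose position relative to the mutation is not known here, differed by -0.03 between lesions and normal glands (95% interval -0.48 to 0.41, adjusted p = 0.988), which is no check of a heterozygous mutation.

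The first comparison, that of the series design, was of all lesions with all normal glands. Rrm2 aside, the replication genes lay on either side of their normal levels. By limma, 0 of 37 were called in either direction, where 0.065% of all probe sets were called. At an unadjusted p under 0.05, 2 of 37 passed, both higher in lesions, beside 7.71% of all probe sets. Of the 37, 19 were above 0 (52.0% of all probe sets were), and their median difference was 0.016, beside 0.0065 over all probe sets. Rrm2, the regulated small subunit of ribonucleotide reductase, which makes deoxyribonucleotides, was the single member with no overlap between lesions and normal glands. No overlap with lesions higher was seen for 0.479% of all probe sets, and 0 members had no overlap with lesions lower, beside 0.695%. The lesions were 1.00 above the normal glands for Rrm2 (SE 0.31, 95% interval 0.33 to 1.67), with an adjusted p of 0.370. The other member past the unadjusted threshold was Mcm5, a subunit of the MCM helicase, at 0.19 (adjusted p = 0.629). After Rrm2, the widest differences in size were those of Rfc3, a clamp loader subunit, at -0.38 (95% interval -0.90 to 0.14), Mcm2, another helicase subunit, at -0.36 (-0.76 to 0.04), and Gmnn at -0.35 (-0.94 to 0.23).

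The lesions fell into animals of 21 to 23 months and of 13 months, and a model of group by age class asked whether lesion age divides the replication genes. Rrm2 rose in the older lesions, and 1 of 37 members was called, beside 0.0103% of all probe sets. At an unadjusted p under 0.05, 7 of 37 passed, all of them higher in older lesions, beside 9.6% of all probe sets in either direction. In the older lesions 27 of 37 members were higher (45.8% of all probe sets were), with a median difference of 0.11, beside -0.018 over all probe sets. Of the 14506 named genes, 7040 were higher, with a median of -0.0069, and 533 had no overlap with older lesions higher (740 lower). Members whose 3 older lesions all lay above the 4 younger ones numbered 5 of 37, beside 3.04%, and members with the reverse order numbered 0, beside 4.55%. These 5 were Rrm2, Gmnn, Mcm6, Pola1 and Dut, which belong to nucleotide supply, licensing, the helicase and primer synthesis. Without lesion 1 the difference was 0.87 for Gmnn, 0.61 for Mcm6 and 0.69 for Pola1. With the 15 dim members left out, those whose mean lies below that of the median probe set, 19 of the remaining 22 were higher in older lesions. Their median was 0.27, and 7440 of the 14607 probe sets above the same cut were higher. The mean behind this cut includes the older lesions, so that a member high there can pass through them. Rrm2, at a mean of 5.05 against a cut of 4.97, passed only through its older lesions, so the filtered values are not independent support. Of the 15 dim members, 8 were higher, with a median of 0.05.

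**Figure D1:**
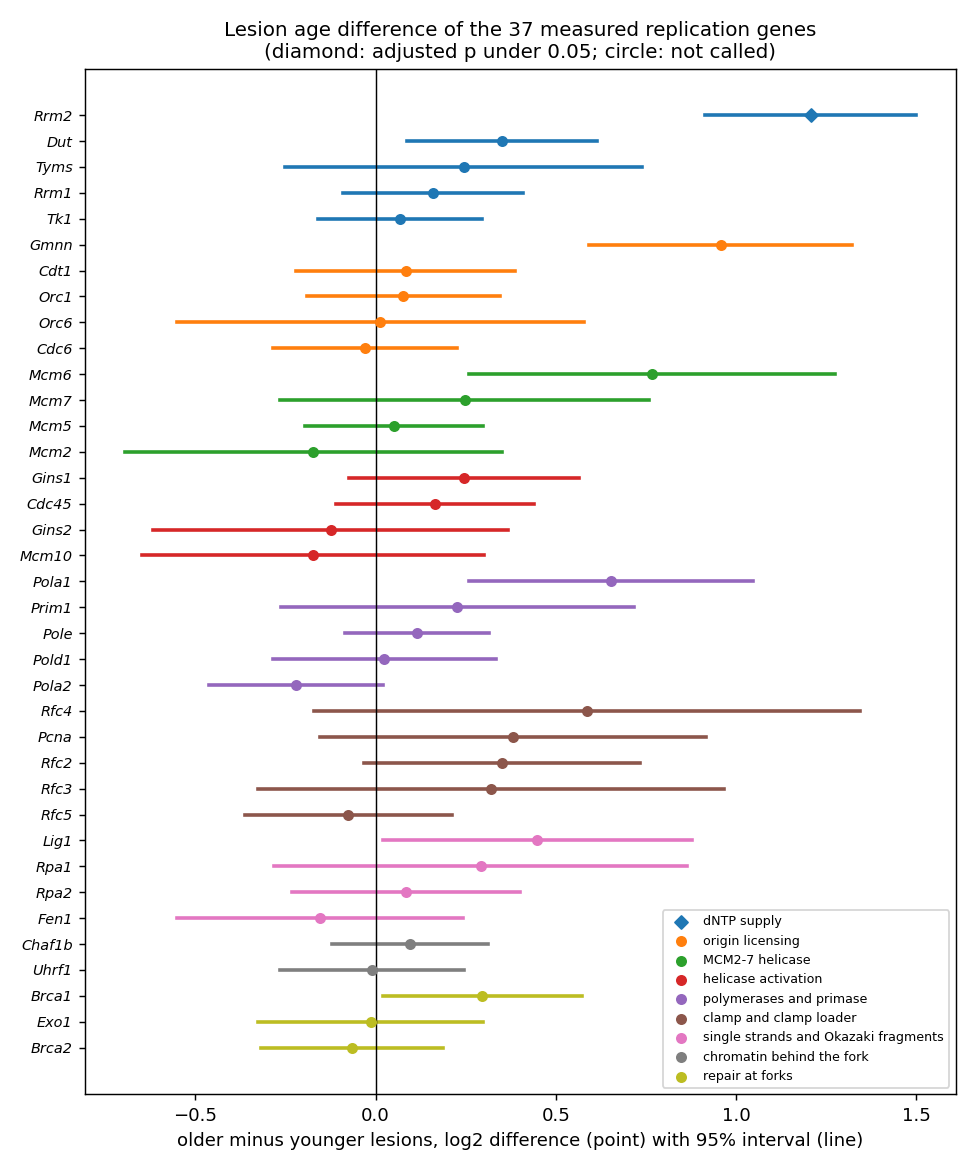
Difference between older and younger lesions for each of the 37 measured replication genes on the log2 scale, grouped and coloured by role, with the 95% interval from limma as a line. The single diamond, Rrm2 at 1.21, marks the called gene, 26 of the other 36 points lie to the right of 0, and most intervals span 0.

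In nucleotide supply, 5 of 5 members had a positive age difference (median 0.24), and they differed widely in size. Rrm2 (probe set 10810144) had log2 levels of 6.16, 6.25 and 5.89 in older lesions 1, 2 and 3. Its levels in younger lesions 4 to 7 were 5.10, 4.965, 4.80 and 4.71, and in normal glands 1 to 4 they were 4.47, 4.63, 4.175 and 4.38. The 3 groups did not overlap, with older lesions highest, younger lesions between and normal glands lowest. The group means were 6.10 ± 0.19 (SD, n = 3), 4.89 ± 0.17 (SD, n = 4) and 4.41 ± 0.19 (SD, n = 4). Older lesions were 1.21 above younger ones, a 2.31-fold difference (SE 0.13, 95% interval 0.92 to 1.50, adjusted p = 0.0318). That call was lost in 14 of 23 alternative analyses, 9 of which leave out 1 array, with adjusted p between 0.0096 and 0.192 over the 23 and the difference between 0.85 and 1.35. Without lesion 1 the difference was 1.175 (adjusted p = 0.144). A second probe set that names Rrm2 (10883903) was dimmer and ran the same way, at 4.715 to 5.08 in older lesions, 3.845 to 4.27 in younger lesions and 3.62 to 3.89 in normal glands. Its age difference was 0.85 (adjusted p = 0.135). The partner subunit Rrm1, which carries the catalytic site, differed by 0.16 (95% interval -0.09 to 0.41), and its second probe set, at a mean of 3.52, by -0.25. Dut, which removes dUTP so that uracil stays out of DNA, had levels of 8.37, 8.47 and 8.47 in older lesions against 8.02 to 8.17 in younger ones, a difference of 0.35 (adjusted p = 0.426). Dut falls outside the rule for array-by-array values and was added after its values were seen. Its normal glands spanned 8.09 to 8.55 and overlapped both. Tyms, which makes thymidylate, differed by 0.24 and Tk1, which salvages thymidine, by 0.07.

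**Figure D2:**
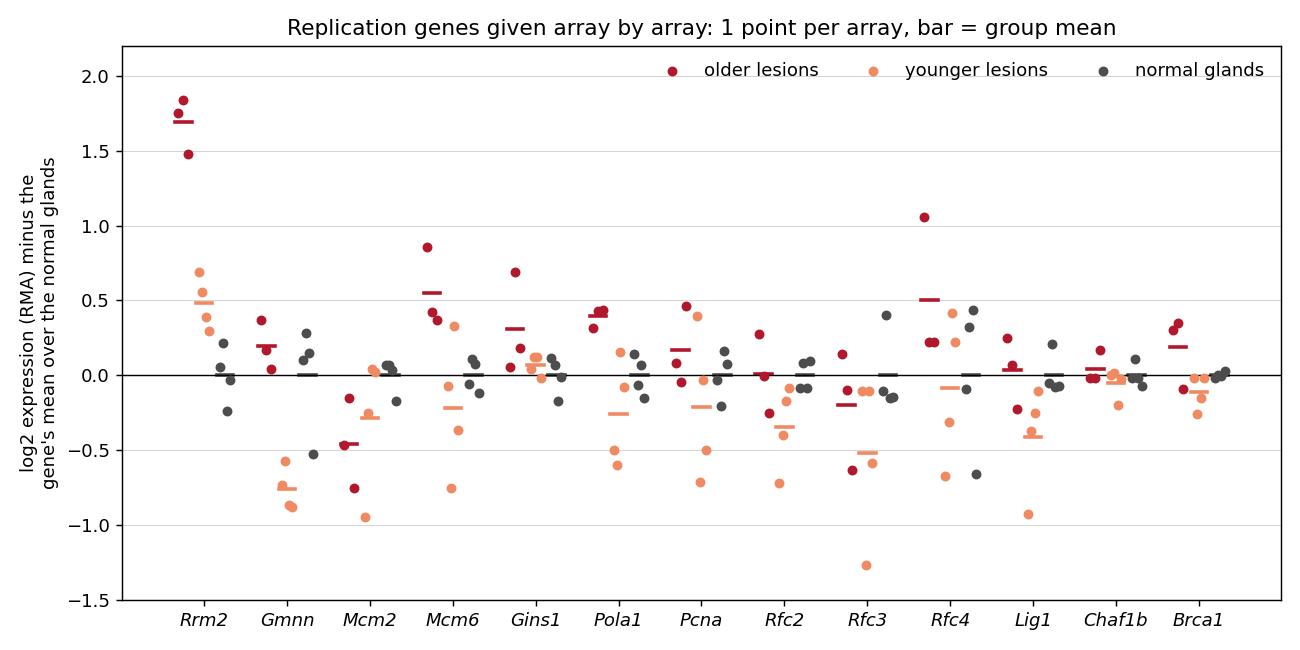
Log2 level of 13 replication genes on each array minus the gene's mean over the 4 normal glands, 1 point per array and a bar at each group mean (3 older lesions, 4 younger lesions, 4 normal glands). Rrm2 separates the 3 groups, Gmnn sets the 4 younger lesions below all other arrays, and for the other 11 genes the points of lesions and normal glands overlap.

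Among the licensing genes, Gmnn, the inhibitor of Cdt1 that stops origins from being licensed again, set the younger lesions apart. Its levels were 6.38, 6.18 and 6.05 in older lesions 1 to 3 and 5.28, 5.44, 5.14 and 5.13 in younger lesions 4 to 7. In normal glands 1 to 4 they were 6.11, 6.29, 6.16 and 5.48. All 4 younger lesions lay below all other arrays, while older lesions and normal glands overlapped, and normal gland 4 was the nearest to the younger lesions. The means were 6.20 ± 0.16 (SD, n = 3), 5.25 ± 0.14 (SD, n = 4) and 6.01 ± 0.36 (SD, n = 4). The age difference of 0.96 (SE 0.16, 95% interval 0.59 to 1.32) did not pass, at an adjusted p of 0.216, and it stayed between 0.87 and 1.07 over 22 alternatives. The other 4 licensing genes differed by between -0.03 and 0.08. On every array 3 of the 5 licensing genes lay below the array median, which limits what their differences can show. The age differences of these other 4 licensing genes were -0.03 for Cdc6, 0.08 each for the loader Cdt1 and Orc1, and 0.01 for Orc6. The 95% interval ran from -0.28 to 0.23 for Cdc6, from -0.22 to 0.39 for Cdt1, from -0.19 to 0.34 for Orc1 and from -0.55 to 0.58 for Orc6.

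In the MCM2-7 helicase, the ring that unwinds DNA at the fork, the 4 measured subunits had age differences of either sign. Mcm6 was at 6.46, 6.03 and 5.98 in older lesions 1 to 3, at 5.53, 4.85, 5.93 and 5.24 in younger lesions 4 to 7, and at 5.54, 5.71, 5.68 and 5.49 in normal glands 1 to 4. Older lesions were the highest arrays for Mcm6, with lesion 6 just under lesion 3. The age difference was 0.77 (SE 0.23, 95% interval 0.26 to 1.27, adjusted p = 0.383). Mcm2 had levels of 6.055, 6.37 and 5.76 in older lesions, 5.57, 6.27, 6.56 and 6.54 in younger lesions, and 6.59, 6.59, 6.555 and 6.35 in normal glands. Older and younger lesions overlapped for Mcm2, with a difference of -0.17 (95% interval -0.70 to 0.35), and the difference ran from -0.39 without lesion 4 to -0.02 without lesion 3. Mcm7 differed by 0.25 (95% interval -0.26 to 0.76) and Mcm5 by 0.05. Mcm5 was dim, at 3.37 to 3.87 over the 11 arrays.

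The factors that turn the loaded helicase on showed differences of either sign. Gins1, a subunit of the GINS complex, was at 3.37, 4.005 and 3.50 in older lesions, at 3.29 to 3.44 in younger lesions and at 3.14 to 3.43 in normal glands. Lesion 2 alone stood out, and the age difference of 0.25 (95% interval -0.07 to 0.56, adjusted p = 0.623) was 0.05 without it. Cdc45, which travels with the active helicase, differed by 0.16, Gins2 by -0.12 and Mcm10 by -0.17. All 4 genes were dim to moderate, between 3.14 and 5.42.

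Among the polymerases, Pola1, the catalytic subunit of the primer-making polymerase alpha, was the member with the widest age difference. Its levels were 5.97, 6.08 and 6.09 in older lesions, 5.15, 5.05, 5.81 and 5.57 in younger lesions, and 5.80, 5.59, 5.72 and 5.50 in normal glands. Older lesions were higher than every other array, and the younger lesions split, with lesions 4 and 5 below all normal glands and lesion 6 above them. The difference was 0.65 (SE 0.18, 95% interval 0.26 to 1.05, adjusted p = 0.355). Without lesions 4 and 5, an alternative added after the data were seen, it was 0.36. Its partner in the same complex, Pola2, differed by -0.22 (95% interval -0.46 to 0.02), and the primase subunit Prim1 by 0.23. The catalytic subunits of the leading- and lagging-strand polymerases differed by 0.11 (Pole) and 0.02 (Pold1).

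The clamp and its loader had a median age difference of 0.35, with 4 of 5 members above 0. Pcna, the sliding clamp, was the brightest member, at 9.76, 9.64 and 10.15 in older lesions, 10.08, 8.97, 9.65 and 9.18 in younger lesions, and 9.65, 9.475, 9.85 and 9.76 in normal glands. Lesions 5 and 7 were lowest, lesion 4 was among the highest, and the difference was 0.38 (95% interval -0.15 to 0.92, adjusted p = 0.647). It was 0.21 without lesion 5, 0.23 without lesion 3 and 0.58 without lesion 4. Rfc4 was at 6.78 in lesion 1 and 5.95 in lesions 2 and 3, and it ranged from 5.05 to 6.14 in younger lesions and from 5.07 to 6.16 in normal glands. Its difference of 0.59 (95% interval -0.17 to 1.34) was 0.31 without lesion 1 and 0.39 without lesion 4. Rfc2 was at 6.44, 6.165 and 5.91 in older lesions and at 5.45, 5.77, 5.995 and 6.08 in younger ones, with normal glands at 6.08 to 6.26. Rfc3 was at 6.31, 6.07 and 5.53 in older lesions and at 6.06, 4.90, 6.06 and 5.58 in younger ones, with normal glands at 6.02 to 6.57. For both, the groups overlapped, with differences of 0.35 (adjusted p = 0.550) and 0.32 (adjusted p = 0.760). The Rfc2 difference was 0.22 without lesion 1 and 0.23 without lesion 4. The Rfc3 difference was 0.07 without lesion 5, 0.15 without lesion 1 and 0.54 without lesion 3. Rfc5 differed by -0.08.

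Single-stranded DNA at the fork is coated by replication protein A, and Okazaki fragments are trimmed by Fen1 and joined by DNA ligase 1. Lig1 was at 7.63, 7.45 and 7.15 in older lesions, at 6.45, 7.00, 7.12 and 7.27 in younger lesions, and at 7.32, 7.585, 7.30 and 7.31 in normal glands. All 4 younger lesions lay below all normal glands, and lesion 7 lay above lesion 3. The age difference was 0.45 (95% interval 0.02 to 0.88, adjusted p = 0.499), and 0.28 without lesion 4. Rpa1 differed by 0.29, Rpa2 by 0.08 and Fen1 by -0.15. Among the younger lesions, lesion 4 lay far below the rest for Rpa1, at 6.30 with the nearest at 7.24. Against the normal glands, all lesions pooled, the 4 members of this role were all below 0 (median -0.17), as were 14035 of all 29214 probe sets. By limma, 0 of 4 were called (0.065% of all probe sets) and 0 of 4 passed an unadjusted p under 0.05 (7.71%). With 4 genes, such counts say little about this role.

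The histone chaperone subunit Chaf1b, which helps place histones on new DNA, had overlapping groups. Its older lesions were at 4.06, 4.06 and 4.25, its younger lesions at 3.88 to 4.09 and its normal glands at 4.01 to 4.19, a difference of 0.10 (95% interval -0.12 to 0.31). Uhrf1, which brings the maintenance methyltransferase to replicated DNA, differed by -0.01 (95% interval -0.27 to 0.25). Of the 3 repair genes, Brca1 was at 4.41, 4.46 and 4.02 in older lesions and at 4.09, 3.855, 3.96 and 4.09 in younger ones, while its 4 normal glands lay within 4.09 to 4.14. Lesions 1 and 2 were above all other arrays, and the age difference was 0.30 (95% interval 0.02 to 0.57, adjusted p = 0.488). Brca2, which protects stalled forks, differed by -0.07, and Exo1, an exonuclease, by -0.01.

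The same 4 normal glands served as controls for both lesion ages, so that the 2 sets of differences below share them. Against normal glands, older lesions had Rrm2 higher by 1.69, a 3.22-fold difference (SE 0.13, 95% interval 1.40 to 1.98, adjusted p = 0.0014). This was the single call among the 37, beside 0.0822% of all probe sets, and it held in 23 of 23 alternatives, where the difference ran from 1.16 to 1.79 and the adjusted p from 0.00053 to 0.0175. Without lesion 1 it was 1.66 (adjusted p = 0.0128). At an unadjusted p under 0.05, 4 of 37 passed, all higher, beside 6.36% in either direction. The older lesions lay above all normal glands in 5 of 37 members (2.67% of all probe sets) and below them in 0 (3.47%). Besides Rrm2 these were Mcm6 at 0.55 (95% interval 0.04 to 1.06, adjusted p = 0.745), Pola1 at 0.39 (0.00 to 0.79), Mcm5 at 0.22 and Exo1 at 0.17. Gmnn differed by 0.19 (adjusted p = 0.949) and Mcm2 by -0.46 (adjusted p = 0.851).

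Younger lesions had 0 of 37 members called against normal glands by limma, beside 0.0924% of all probe sets, and 3 of 37 passed at an unadjusted p under 0.05, beside 10.7%. Their lesions lay above all normal glands in 1 member (3.5% of all probe sets) and below them in 2 (2.43%). The member above was Rrm2, at 0.48 (SE 0.12, 95% interval 0.21 to 0.75, adjusted p = 0.209). The members below were Gmnn, at -0.76 (SE 0.15, 95% interval -1.10 to -0.43, adjusted p = 0.142), and Lig1, at -0.42 (95% interval -0.81 to -0.02, adjusted p = 0.444), or -0.24 without lesion 4. Without normal gland 4, whose Gmnn level was the lowest of the normal glands, the Gmnn difference was -0.93 and was called (adjusted p = 0.0487). Over the alternatives it ran from -0.93 to -0.57. Rfc3 at -0.52 (adjusted p = 0.542, and -0.27 without lesion 5) and Rfc2 at -0.35 (adjusted p = 0.480) were also below 0, as were 22 of the 37, with a median of -0.05.

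**Figure D3:**
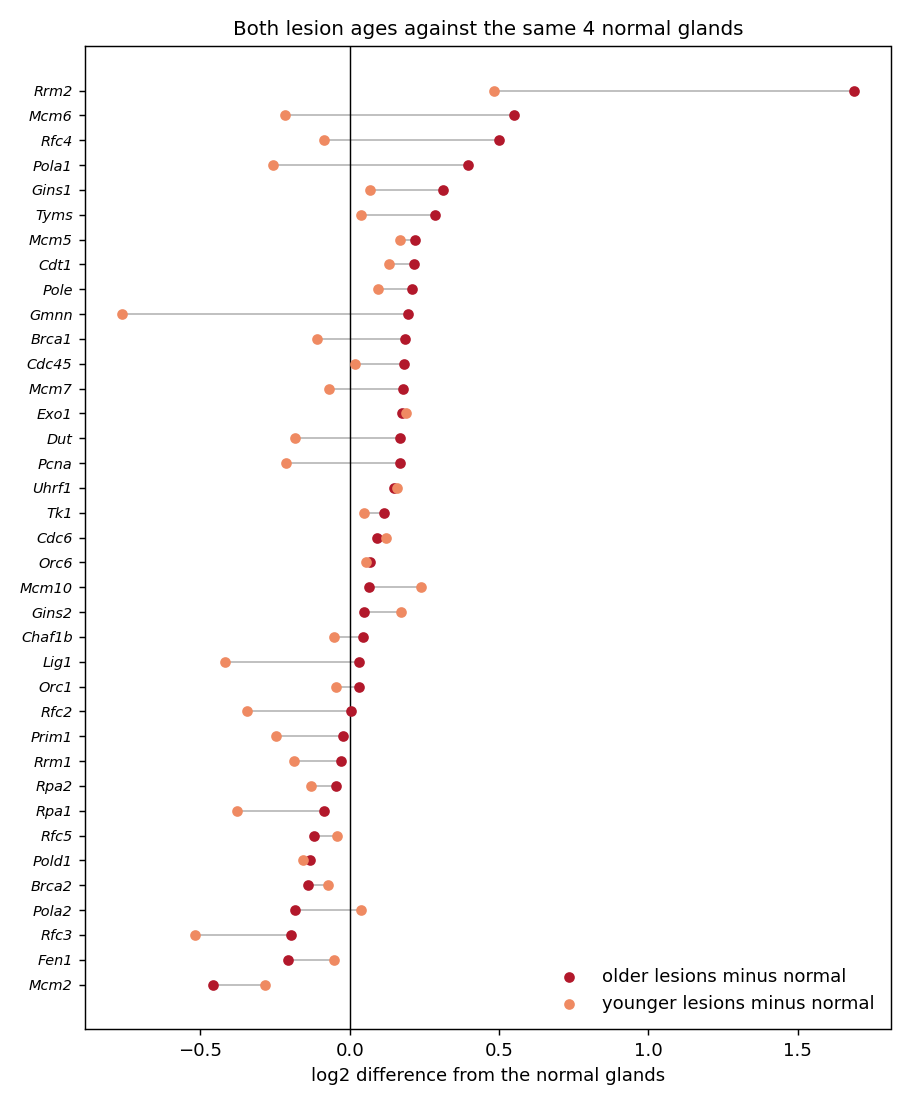
Log2 difference of older lesions (dark red) and of younger lesions (orange) from the same 4 normal glands for each of the 37 replication genes, ordered by the older lesions. Rrm2 is above 0 at both ages (1.69 and 0.48), Gmnn is at 0.19 in older and at -0.76 in younger lesions, and most other genes lie within 0.5 of the normal glands at both ages.

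Age within the normal glands, 2 against 2, gave 0 of 37 calls by limma (0% of all probe sets), and 0 of 37 passed at an unadjusted p under 0.05 (2.87% of all probe sets). The median difference was 0.07. The difference between the age differences in lesions and in normal glands was tested as an interaction. By limma, 0 of 37 were called (0% of all probe sets), and 2 of 37 passed at an unadjusted p under 0.05 (2.83%). These were Rrm2, at 0.94 (95% interval 0.46 to 1.42, unadjusted p = 0.0014, adjusted p = 0.9996), and Dut, at 0.45 (95% interval 0.02 to 0.88). So the age difference of Rrm2 in lesions, at 1.21, was not shown at this threshold to exceed that of 0.27 in normal glands. Between males and females, with group and age class in the model, 0 of 37 were called by limma (0% of all probe sets), and 2 of 37 passed at an unadjusted p under 0.05 (4.51%). Mcm10 lay between 4.35 and 4.95 on the male arrays and between 4.05 and 4.33 on the female ones. It was the single member with all males above all females, which was the case for 0.137% of all probe sets. Its difference was 0.46 (95% interval 0.24 to 0.68, unadjusted p = 0.00091, adjusted p = 0.599). Tyms was the other, with a male minus female difference of -0.37 (adjusted p = 0.999).

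Array by array, the median of the 37 members relative to their normal means was 0.14, 0.07 and 0.10 in older lesions 1 to 3. It was -0.10, -0.11, -0.0027 and -0.02 in younger lesions 4 to 7 and between -0.02 and 0.07 in normal glands. Older lesions all lay above younger ones, and normal gland 2 reached the level of lesion 2. Of the 37, 19 had their highest value in an older lesion, where 31.5% of all named genes had theirs. The lowest value lay in a younger lesion for 21 members (36.95% of named genes), in a normal gland for 13 (29.5%) and in an older lesion for 3 (33.5%). By single array, the lowest values were most frequent in lesion 4 and in normal gland 3, with 9 members each (13.0% and 7.20% of named genes), followed by lesion 5 with 7 (11.5%). The medulla and cortex markers also differed between the lesion ages. The 7 measured chromaffin markers had a median relative to their normal means of 0.01 to 0.28 in older lesions and of -0.62 to -0.04 in younger ones, with lesion 4 lowest. The 8 cortex markers were between 0.22 and 0.50 above their normal means in younger lesions and ran from -1.02 in lesion 1 to 0.26 in lesion 3 in older ones. The 8 lymphocyte markers ran from -0.32 to 0.84 in older lesions and from -0.26 to 0.05 in younger ones. The 4 measured erythroid markers had a median of 0.70 in lesion 3, where all 4 lay above all normal glands, and between -0.25 and 0.10 in the other lesions. The 7 neutrophil and myeloid markers had a median relative to their normal means of -0.0047 to 0.23 in older lesions. It was 0.045 to 0.135 in younger ones, within that range. Their mean level was 4.70 to 5.06 in older lesions, 4.13 to 4.47 in younger lesions and 4.04 to 4.34 in normal glands. Of the 7, 2 were higher by 1 or more in older than in younger lesions, and 3 were lower. Against normal glands, 3 of the 7 were higher in older lesions and 4 were lower. S100a9, a neutrophil protein, was 2.44 higher in older lesions than in normal glands (adjusted p = 0.0405, and 0.053 to 0.125 with any single array left out), while the precursor markers Mpo and Elane did not exceed 4.725 in older lesions. The part of these cell types in the replication gene differences was not tested.

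**Figure D4:**
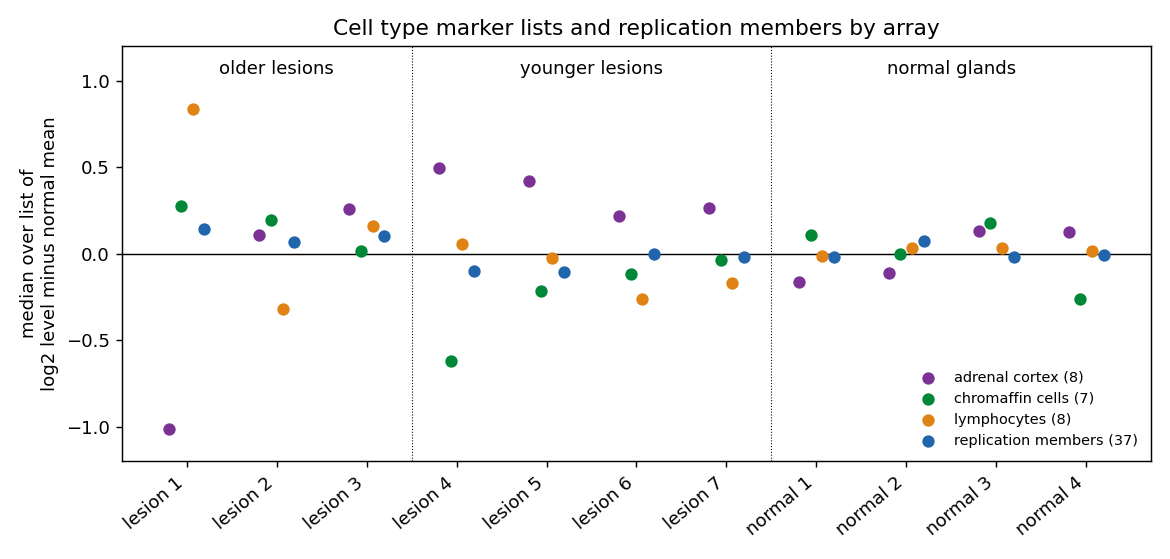
Median over each marker list, and over the 37 replication genes, of the log2 level minus the gene's normal mean, on each of the 11 arrays. Lesion 1 has the lowest cortex median (-1.02) and the highest lymphocyte median (0.84), lesion 4 has the lowest chromaffin median (-0.62), and the replication genes stay between -0.11 and 0.14.

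Beside the listed members, 34 of 44 further replication genes were measured, among them the remaining subunits of the same complexes. By limma, 0 of 34 were called between lesion ages (0.0103% of all probe sets) and 0 of 34 between lesions and normal glands (0.065%). At an unadjusted p under 0.05, 6 and 0 of them passed (9.6% and 7.71%). Their median age difference was 0.06, with 22 of 34 above 0. It was 0.0029 without lesion 2, 0.10 without lesion 1 and 0.11 without lesion 3. Their median difference between lesions and normal glands was -0.06, or -0.12 without normal gland 4 and -0.03 without lesion 4. Pclaf, a binding partner of Pcna, had the widest age difference, at 5.42, 5.55 and 5.54 in older lesions, 4.67, 4.11, 4.36 and 5.05 in younger lesions, and 4.505 to 5.07 in normal glands. Older lesions lay above all other arrays for Pclaf, by 0.95 over younger ones (95% interval 0.53 to 1.38, adjusted p = 0.249). Rpa3, the small subunit of replication protein A, differed by 0.83 (adjusted p = 0.544) and Gins4 by 0.70 (adjusted p = 0.475).

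Of 33 genes that control entry into S phase, 27 were measured, and 0 were called by limma between lesion ages (0.0103% of all probe sets) or between lesions and normal glands (0.065%). At an unadjusted p under 0.05, 5 and 6 of them passed (9.6% and 7.71%). Their median age difference was 0.09, with 18 of 27 above 0, and it was 0.03 without lesion 5, 0.055 without lesion 1 and 0.03 over the 20 genes left without dim probe sets. The widest age differences were those of Cdkn2a, which encodes the kinase inhibitor p16 and Arf, at 0.96 (adjusted p = 0.684), and cyclin D2 (Ccnd2), at -0.84 (adjusted p = 0.471). Both rested on lesion 1, where Cdkn2a was at 7.505 and elsewhere between 3.44 and 4.50, and Ccnd2 was at 7.69 and elsewhere between 9.10 and 9.69. Without lesion 1 the differences were -0.16 and -0.30. Cdkn1a, which encodes the kinase inhibitor p21, differed by 0.77 (adjusted p = 0.492), and by 0.44 without lesion 1.

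Mitosis genes, of which 22 of 25 were measured, differed more widely with lesion age than the replication genes did, although the difference between the lists was not tested. All 22 were higher in older than in younger lesions, with a median of 0.68 (0.55 without lesion 1), and 16 of 22 had no overlap, beside 3.04% of all probe sets. By limma 1 of the 22 was called, beside 0.0103% of all probe sets. This was Top2a, the topoisomerase that untangles chromosomes before they part, at 2.33 (adjusted p = 0.00085). It was at 6.58, 6.53 and 6.90 in older lesions, 4.25 to 4.46 in younger lesions and 3.94 to 4.51 in normal glands. Older lesions stood more than 2 log2 units above every other array for Top2a, and the younger lesions overlapped the normal glands. The widest after it were Ndc80 at 1.43 (adjusted p = 0.247) and Nuf2 at 1.35 (adjusted p = 0.359, and 0.78 without lesion 1), both kinetochore proteins. Against normal glands, older lesions had 3 of 22 called, beside 0.0822% of all probe sets. These were Top2a at 2.37 (adjusted p = 0.00036), cyclin B1 (Ccnb1) at 1.00 and Kif23 at 0.80 (both adjusted p = 0.0405). Top2a was called with each of the 11 arrays left out in turn, while Ccnb1 was called only without lesion 6 and Kif23 only without lesion 1. In the older lesions 21 of 22 lay above all normal glands, beside 2.67% of all probe sets. In younger lesions 0 of 22 were called by limma, beside 0.0924%, and 2 passed at an unadjusted p under 0.05, beside 10.7%. The median there was 0.09, and 0.30 over the 3 mitosis genes left without dim probe sets. Per array, the median of the mitosis genes over their normal means was 0.87, 0.90 and 0.63 in lesions 1 to 3 and between 0.01 and 0.14 in lesions 4 to 7, beside the 0.14, 0.07 and 0.10 of the replication genes in lesions 1 to 3.

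**Figure D5:**
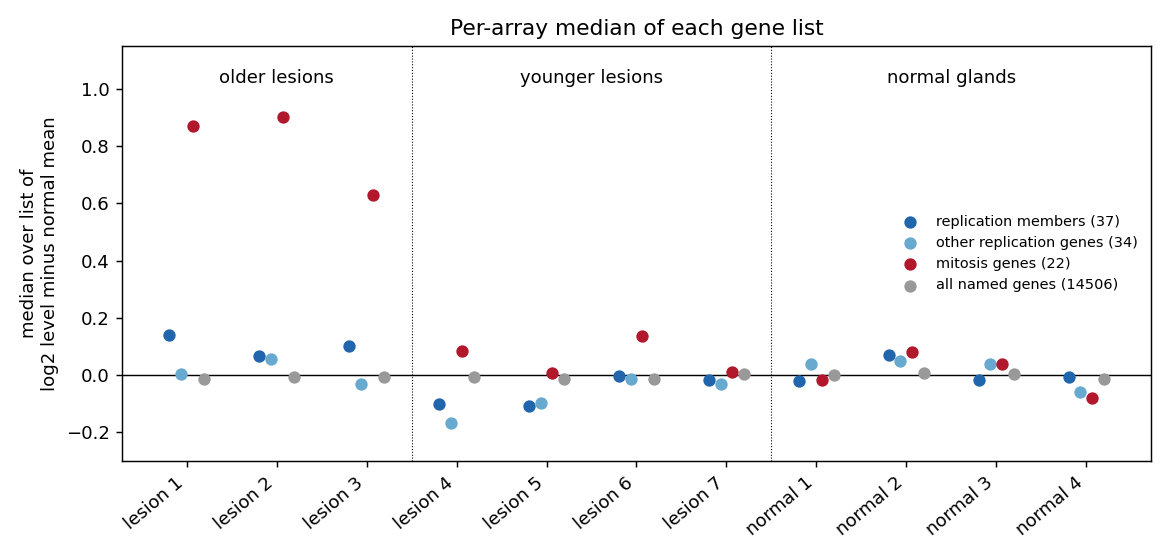
Median over each gene list of the log2 level minus the gene's mean over the 4 normal glands, on each of the 11 arrays, with the number of genes in brackets. Mitosis genes stand at 0.63 to 0.90 in the 3 older lesions, while the replication genes, the other replication genes and all named genes stay between -0.17 and 0.14 on every array.

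The promoters of the replication genes share letters that the list did not use. Since many such genes are transcribed by E2F factors, a high share of E2F-type letters could be foreseen from the choice of genes. It is not a result of these arrays. RefSeq (assembly GRCr8) lists a promoter of 300 bases, from 250 before to 50 after a gene's start, for 36 of the 40 members, and Rrm2, Orc1, Cdc6 and Mcm4 are not among them. The E2F-type letters searched, on both strands, were TTGGCGC as well as TTCCCGC as well as TTCGCGC as well as TTGCCGC, and matches could overlap. At least 1 was found in 25 of 36 member promoters (69.4%), beside 10.6% of all 27457 genes with a promoter and 12.7% of the 18999 protein-coding ones, and all 5 helicase subunits with a promoter had such letters. CCAAT, searched on both strands, was in 63.9% of members and 39.6% of all genes. TTTGAA, the CHR element of genes expressed late in the cell cycle, was in 5.56% of members and 19.4% of all genes. The median GC content was 60.1% in members and 52.3% in all genes, and the motif shares were not matched for it. The E2F-type and CCAAT shares were not particular to the members. In the 37 other replication genes with a promoter, E2F-type letters were in 62.2%, CCAAT in 40.5% and TTTGAA in 29.7%. In the 22 G1/S control genes with a promoter, the shares were 36.4%, 36.4% and 31.8%. In the 22 mitosis genes with a promoter, E2F-type letters were in 18.2%, CCAAT in 72.7% and TTTGAA in 72.7%. Members without E2F-type letters in the window were Tk1, Dut, Orc6, Cdc45, Gins2, Pola2, Pcna, Rfc5, Rpa1, Brca2 and Exo1, so that of the 5 genes with no overlap between lesion ages, Gmnn, Mcm6 and Pola1 had such letters, Dut had none and Rrm2 was not listed.

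Of the members with E2F-type letters in the promoter, the 4 with the widest age differences are shown, since they hold the motif that the members share in numbers from 1 (Gmnn and Rfc4) to 5 (Mcm6). They are Gmnn at chr17:40729584-40729883 (plus strand), Mcm6 at chr13:42404303-42404602 (minus strand), Pola1 at chrX:62342306-62342605 (minus strand) and Rfc4 at chr11:91254023-91254322 (plus strand), each written along the gene. Capitals mark the E2F-type letters, on either strand, and the longer runs in Mcm6 are pairs that overlap on opposite strands.
Gmnn: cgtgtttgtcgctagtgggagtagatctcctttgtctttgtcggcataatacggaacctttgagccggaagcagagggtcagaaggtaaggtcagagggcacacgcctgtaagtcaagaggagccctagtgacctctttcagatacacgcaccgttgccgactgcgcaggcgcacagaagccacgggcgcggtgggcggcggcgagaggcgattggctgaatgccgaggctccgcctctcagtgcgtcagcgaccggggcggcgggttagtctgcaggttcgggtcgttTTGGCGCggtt
Mcm6: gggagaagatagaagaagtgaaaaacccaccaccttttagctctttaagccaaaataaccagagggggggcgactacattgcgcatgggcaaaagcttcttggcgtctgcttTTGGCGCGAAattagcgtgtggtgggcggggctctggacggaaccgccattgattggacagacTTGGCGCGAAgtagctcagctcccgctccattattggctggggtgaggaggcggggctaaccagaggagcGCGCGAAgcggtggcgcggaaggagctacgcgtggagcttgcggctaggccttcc
Pola1: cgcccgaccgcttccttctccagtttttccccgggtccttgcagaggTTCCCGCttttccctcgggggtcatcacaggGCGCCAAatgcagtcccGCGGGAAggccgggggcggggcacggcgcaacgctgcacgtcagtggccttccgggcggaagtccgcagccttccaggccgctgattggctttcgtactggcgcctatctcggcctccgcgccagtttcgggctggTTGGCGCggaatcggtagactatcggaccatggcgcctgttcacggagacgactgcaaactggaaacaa
Rfc4: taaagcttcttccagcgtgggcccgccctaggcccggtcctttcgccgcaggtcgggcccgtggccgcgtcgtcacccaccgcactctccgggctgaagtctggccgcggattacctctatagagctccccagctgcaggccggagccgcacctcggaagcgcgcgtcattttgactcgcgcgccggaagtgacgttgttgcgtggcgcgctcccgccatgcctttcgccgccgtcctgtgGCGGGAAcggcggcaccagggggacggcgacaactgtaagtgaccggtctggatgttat
The single match in Gmnn lies after the start, at bases 290 to 296 of the window, and that in Rfc4 lies just before it, at bases 242 to 248. Mcm6 holds 5 matches at 3 places and Pola1 holds 4, of which those at bases 48 to 54, 79 to 85 and 96 to 102 lie well before the start. A match is a run of letters and not a measured binding site.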

How the data were processed

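Total RNA was amplified with a kit for small inputs (Ovation PicoSL WTA System V2) and biotin-labelled, per the labels' protocols. The authors deposited RMA values on the log2 scale, 1 for each probe set. The submitters' processing notes name Affymetrix Expression Console, version 1.3.0.187, as the software. No genome build for the probes was given in those sources. Scanner files were not used here, so detection above background and scan dates were not examined, and precision is limited by the number of arrays.

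The platform annotation gave 1 symbol to 15310 of the 29214 probe sets, several to 323 and listed no entry for 13581. A RefSeq table matched 15279 of the 15310 by gene ID and changed 0 symbols. All 29214 probe sets and 11 arrays entered two-sided limma fits (version 3.58.1, lmFit with eBayes, under R 4.3.3), and the p-values of all probe sets were adjusted together (Benjamini-Hochberg). The first comparison had group alone, the age comparisons group by age class (12 to 13 against 21 to 24 months), and the sex comparison sex as well. Intervals are the fit's 95% intervals. The procedure was tested on simulated data.

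The members and lists were chosen with earlier results of these data known. Array-by-array values were given for every called member, the 8 widest age differences, the 3 widest lesion differences and the widest of each role. Of the other lists, called genes and up to 3 of the widest age differences were named. Replicate numbers did not mark shared animals, and same-numbered lesions and normal glands correlated at 0.0728 to 0.209 once group means were removed. Even so, 3 of the 4 normal arrays were most alike the lesion of their own number. Whether the numbers mark shared processing was not tested. Python 3.11.15 and matplotlib 3.10.9 drew the figures.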

Additional observations from a re-analysis of the deposited data

Results flagged for a closer look

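Each member was examined within all lesions, within the younger lesions and within the normal glands for an array that lay far from the rest of its group by Dixon's criterion. Of 111 groups tested, 9 held such an array, and chance gives about 1 in 20. In the lesions, Orc6 was highest in lesion 5 at 6.659 (the nearest array was at 6.137), and Gins1 was highest in lesion 2 at 4.005 (nearest 3.497). In the younger lesions, Tk1 was highest in lesion 4 at 3.949 (nearest 3.792), Rpa1 was lowest in lesion 4 at 6.302 (nearest 7.236), and Chaf1b was lowest in lesion 6 at 3.884 (nearest 4.058). In the normal glands, Mcm2 was lowest in gland 4 at 6.348 (nearest 6.555) and Uhrf1 was lowest in gland 3 at 4.241 (nearest 4.497). Normal gland 2 was highest for Rfc3 at 6.569 (nearest 6.06) and for Lig1 at 7.585 (nearest 7.324). The 9 values are spread over 7 arrays, and that of Rpa1 in lesion 4 had the widest gap to its neighbour. Rrm2 and Gmnn were not among them.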

How the results depend on the processing

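Alternatives were further normalization, filters, other eBayes settings, array weights, covariates, subsets of arrays and leaving out each array. The count of 1 member called between older and younger lesions was 0 with the mean of all probe sets of a gene, with sex in the model, with lesion arrays alone and without lesions 4 and 5 (added after the data were seen), and 0 to 1 when each array was left out in turn. It was 0 without lesion 1, 4, 5, 6 or 7 or any normal gland, and 1 without lesion 2 or 3. In those analyses Rrm2 had adjusted p of 0.0671, 0.0865, 0.192 and 0.110, and 0.0572 to 0.151 without single arrays. The count of 0 members called between younger lesions and normal glands was 0 to 1 when each array was left out, the 1 being Gmnn without normal gland 4. The median age difference of the members, 0.11, was 0.27 with dim probe sets left out and 0.10 to 0.13 without single arrays. The cut for dim probe sets used the mean over all arrays, older lesions included. The median between lesions and normal glands ran from -0.07 to 0.06. The replicate number as a block, fitted for lesions against normal glands alone, gave 0 members called and a median of 0.056. The main fit of that comparison also had 0 members called, so that no call could be lost. Lesions 5 to 7, without a normal gland of the same number, added nothing to its estimate. The age comparisons were not fitted with this block. Older lesions against normal glands kept 1 member called under all 22 alternatives, and no called result turned its direction in these alternatives. Of the 37 members, 13 were below the array median on every array, which limits what their differences can show.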

Other observations

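Some RMA values were identical on several arrays, among dim and brighter members alike. To 3 decimals, 10 of the 37 replication genes held 1 value on 3 or more arrays (27.0%), beside 17.0% of all named genes. Chaf1b, Pole and Tk1 did so on 4 arrays, and Brca1, Cdc45, Rfc2, Rfc3, Rfc4, Rpa1 and Uhrf1 on 3. For Chaf1b the repeated value of 4.063 was shared by older lesions and normal glands.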
